A study of Mus musculus with 45 samples.

Results

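Macrophages of the meninges (mMΦ) were compared with microglia, the macrophages of the brain parenchyma, at postnatal day 3 (P3). The 6 libraries compared, 3 of mMΦ and 3 of microglia, were those whose titles give this population and age, out of 45 libraries in 13 groups of population and age. Both groups came from untreated C57BL/6J mice of genotype Cx3cr1GFP/wt, in which GFP occupies 1 allele of the chemokine receptor gene Cx3cr1, so that mMΦ and microglia alike had a single intact copy. Cells were sorted from brain tissue of individual mice and measured by bulk RNA sequencing. Neither the markers nor the gates of the sort are given in the sources used. The titles number the mMΦ libraries 1, 2 and 3 and the microglia libraries 2, 3 and 4. All were sequenced in project S232 except microglia replicate 4, the only P3 library of project S276. Values per library are given below in the order of these numbers.

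As background, both populations are resident macrophages that descend largely from yolk sac precursors and need signals through the CSF1 receptor. Microglia scan the parenchyma, clear dying cells and synapses, and hold their identity through TGF-beta signals and the transcription factor Sall1. Macrophages of the meninges lie along vessels and in the connective tissue around the brain. They are known for scavenger and lectin receptors such as Mrc1, Cd163 and Lyve1. At P3 the brain is still growing, and both populations are far from their adult state.

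At P3, mMΦ and microglia differed at an adjusted p under 0.05 in 780 of 17064 genes tested (4.57%), 415 of them higher in mMΦ (2.43%) and 365 lower in mMΦ (2.14%). Higher in mMΦ were 10 of 28 C-type lectin receptor genes, 6 of 9 genes of the Ms4a family, 15 of 45 interferon response genes and 7 of 21 genes of iron and haem handling. Lower in mMΦ were 12 of 40 lysosomal genes, 9 of 33 genes of integrins and adhesion, 6 of 24 glycolytic genes and the 3 genes of complement C1q. Leaving out 1 library lowered some of these counts, that of integrins and adhesion to 6. Of 43 S phase and 46 mitosis genes none was called by edgeR, while DESeq2 called 0 and 1 and voom 1 and 9.

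The mMΦ libraries held 20699820, 22668720 and 21055500 counts and the microglia libraries 17618151, 21254533 and 19484990. The scatter between libraries was smaller in mMΦ, with an edgeR common dispersion of 0.354, against 0.912 in microglia. Microglia replicate 2 stood apart. Mitochondrial genes took 3.69% of its counts, against 0.799% and 1.26% in the other two microglia libraries, 0.590 to 0.659% in mMΦ and at most 1.26% in the other 44 libraries of the series. The sexes were not balanced either. The female transcript Xist was at 0 CPM in each mMΦ library and at 0.672, 177 and 35.5 CPM in microglia, while the Y-linked Ddx3y was at 71.9, 67.2 and 59.8 CPM in mMΦ and at 50.2, 2.10 and 0 CPM in microglia. Microglia replicates 3 and 4 were thus of female type and the other 4 libraries of male type. With microglia replicate 2 alone on the microglia side, where both sides are of male type, 393 genes were called, and 335 of them were among the 780, in the same direction.

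Levels are given in CPM, that is counts scaled to a fixed library total after TMM scaling, either for each library or as the mean ± SD of the 3 in a group. Differences are log2 fold changes of mMΦ over microglia ± SE. This SE was worked back from the F statistic of the test and is not a standard error of the fit itself. It is unreliable where a group had almost no counts. For Rara it was 2.14 at P3 and 2.21 at P10, but 0.583 for P3 minus P10. The differences were fitted across all 45 libraries with a term for project S276. They can thus depart from the ratio of the mean CPM printed beside them. A gene was called at an adjusted p under 0.05. The 6 libraries did not overlap between the groups in 754 of the 780 called genes, as in 27.1% of all genes tested. Of the 780 genes, 369 differed by more than 3 on the log2 scale, 53 had no count in any microglia library and 29 had none in any mMΦ library. The term for project S276, which at P3 bears on microglia replicate 4 alone, was itself called in 1098 of the 17064 genes tested. Among the 780 it was called in 153. Without that term 583 genes were called at P3, 568 of them shared with the 780. Within project S232 alone, 542 genes were called, 300 higher and 242 lower in mMΦ. Without microglia replicate 2, 507 genes were called, 483 of them shared with the 780. Of the 162 called genes named by rule, 158 did not overlap between the groups, and the 4 that did were Il1b, Nr4a1, Hspa1a and Hsp90aa1. Absence of overlap was a condition for the genes named by size of change or by level, so this share was partly fixed beforehand.

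**Figure D1:**
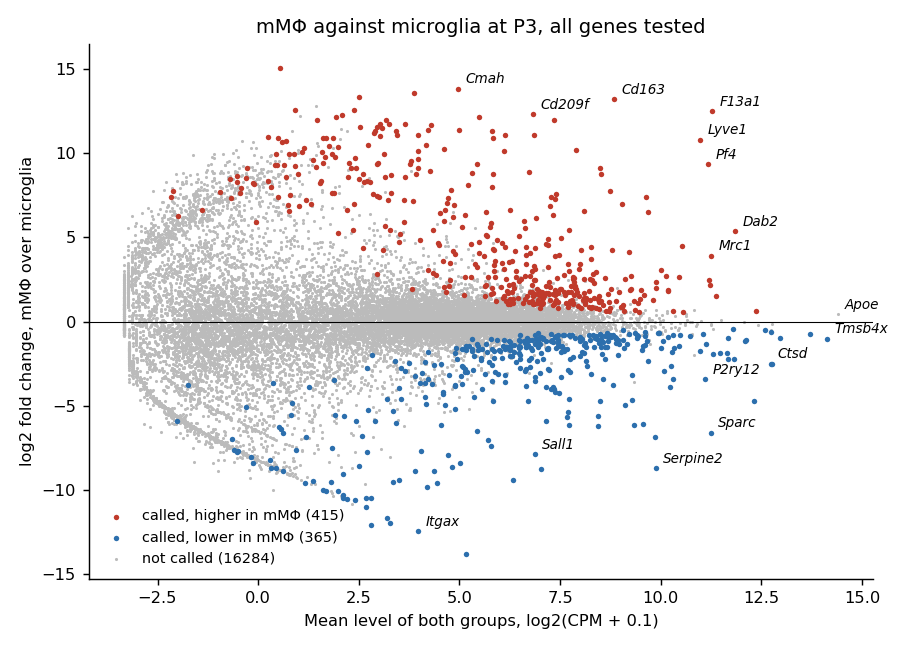
Each point is 1 of the 17064 genes tested, with the mean level of both groups in log2(CPM + 0.1) on the x axis and the log2 fold change of mMΦ over microglia at P3 on the y axis. Red points (415) were called higher and blue points (365) lower in mMΦ, grey points (16284) were not called, and the named genes are described in the text.

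The genes by which the 2 populations are recognised were mostly higher in the population they mark. Both marker lists were chosen with earlier results of these data known, so their counts are no independent check of identity. Of 30 border macrophage markers tested, 28 were higher in mMΦ and 1 was lower, with a median log2 fold change of 6.58 against -0.03 over all genes tested. Cd163, the haemoglobin scavenger receptor, was at 917, 865 and 977 CPM in mMΦ and at 0.048, 0.0893 and 0.242 CPM in microglia (log2 fold change 13.22 ± 0.72, adjusted p = 2.1e-15). F13a1, the A chain of clotting factor XIII, was at 4431, 4673 and 5769 CPM in mMΦ and 0.528, 0.402 and 1.4 CPM in microglia (log2 fold change 12.48 ± 1.43, adjusted p = 5.9e-08). The hyaluronan receptor gene Lyve1 was at 3468, 3731 and 4917 CPM in mMΦ and 5.91, 0.179 and 0 CPM in microglia (log2 fold change 10.81 ± 1.03, adjusted p = 1.2e-09). These 3 genes were near 0 in every microglia library, whereas other markers were present in microglia at a lower level. Mrc1, the mannose receptor, was at 4283, 4367 and 5124 CPM in mMΦ, against 316, 310.3 and 301 CPM in microglia (log2 fold change 3.91 ± 0.40, adjusted p = 4.8e-09). The endocytic adaptor gene Dab2 was at 6616, 7138 and 7756 CPM in mMΦ and 160.5, 212 and 209.8 CPM in microglia (log2 fold change 5.35 ± 0.55, adjusted p = 5.4e-09). The groups did not overlap in any of these genes, but that was a condition for naming them by size of change or by level. Of all genes tested, 27.1% did not overlap. The marker called in the other direction was Fcrls, a scavenger receptor of the Fc receptor-like family that stood in both marker lists, at 2888 ± 186 CPM in mMΦ and 5942 ± 1361 CPM in microglia (log2 fold change -1.08 ± 0.14, adjusted p = 7.9e-07). The remaining one, the growth factor gene Igf1, was at 327 ± 16 CPM in mMΦ and 147 ± 26.9 CPM in microglia and was not called (adjusted p = 0.2).

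Microglia markers ran the other way, with 22 of 24 lower in mMΦ and none higher (median log2 fold change -4.87). Sall1, which microglia need to keep their identity, was at 0.88, 1.8 and 0.0421 CPM in mMΦ and 224, 235 and 241 CPM in microglia (log2 fold change -7.89 ± 1.16, adjusted p = 8.8e-06). Its relative Sall3 was at 0.0419, 0.0383 and 0 CPM in mMΦ and 36.2, 27.7 and 45.3 CPM in microglia (adjusted p = 0.0011). The mMΦ libraries held 2 counts of Sall3 in all, which puts it 1333-fold lower in mMΦ by pooled counts, 95% exact interval 368 to 11009.7, an interval that, like those below, covers counting error only. The purinergic receptor gene P2ry12 was at 369.9, 332 and 386 CPM in mMΦ and 2865, 5474 and 3723 CPM in microglia (log2 fold change -3.42 ± 0.30, adjusted p = 2.2e-10). Microglia replicate 2 was the lowest of the 3 microglia libraries for P2ry12, yet it lay far above mMΦ. Sparc, a secreted matrix glycoprotein, averaged 54.8 ± 17.5 CPM in mMΦ and 4772 ± 969 CPM in microglia, and the protease inhibitor gene Serpine2 4.94 ± 4.92 CPM in mMΦ and 1879 ± 380.0 CPM in microglia. Cx3cr1, whose locus carries the reporter, was read in both, at 590.4, 589 and 701 CPM in mMΦ and 1469.8, 2623 and 1798 CPM in microglia (log2 fold change -1.55 ± 0.27, adjusted p = 0.00013). The 2 markers not called were Csf1r and Ltc4s, and the libraries overlapped in both. Csf1r, the CSF1 receptor, averaged 6256 ± 264 CPM in mMΦ and 7624 ± 2316 CPM in microglia (adjusted p = 0.84). Ltc4s, the leukotriene C4 synthase, averaged 197 ± 11 CPM in mMΦ and 222 ± 36 CPM in microglia (adjusted p = 0.25).

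**Figure D2:**
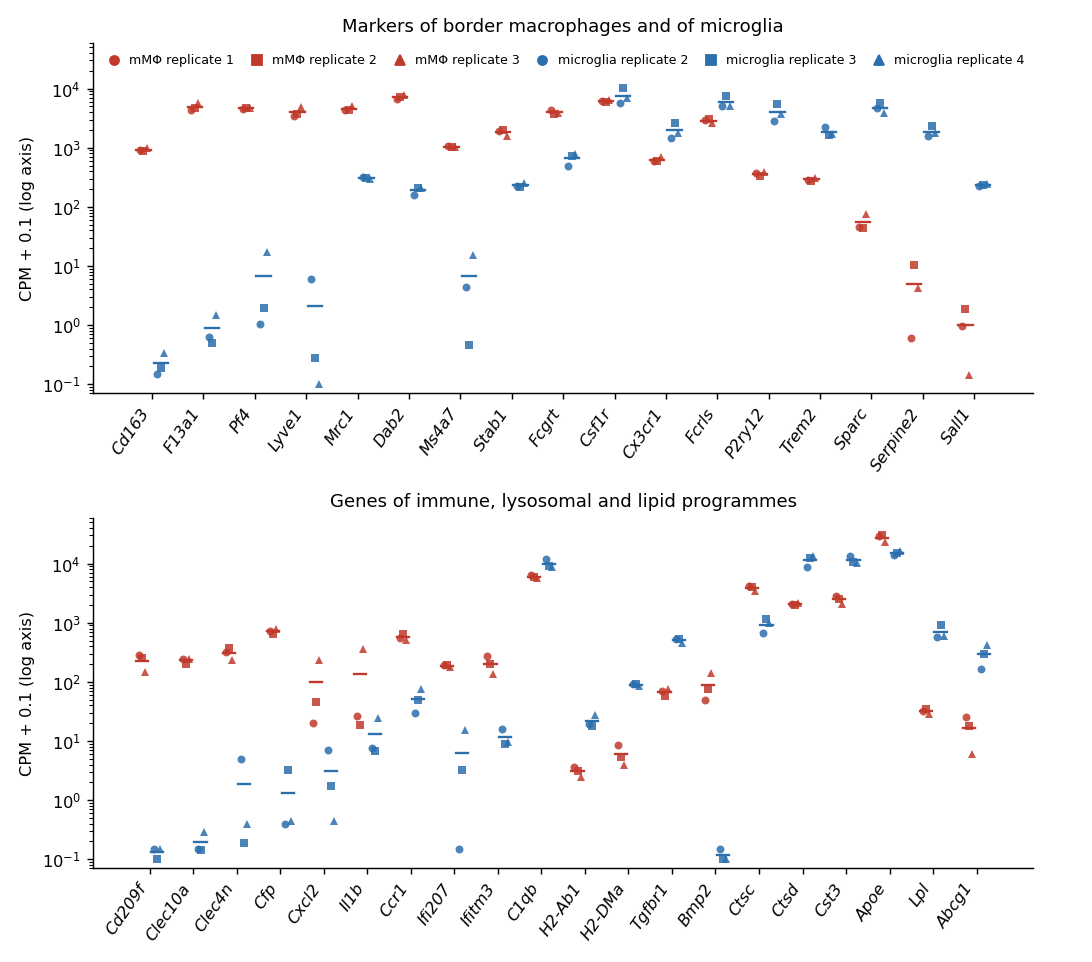
Level of each named gene in each of the 6 P3 libraries, as CPM + 0.1 on a log axis, with mMΦ in red to the left of microglia in blue, 1 symbol per replicate and a bar at the group mean. Cd163, a border macrophage marker, lies at 865 to 977 CPM in mMΦ and below 1 CPM in microglia, while P2ry12 and Sall1 lie far lower in mMΦ.

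Markers of other cells that the sort could carry along were summed in each library. Of 13 such lists, fibroblast and leptomeningeal genes were the one with more than 2 members called, 9 of 19 higher and none lower in mMΦ, with sums of 269.5, 276.01 and 329.8 CPM in mMΦ and 18.7, 5.18 and 4.16 CPM in microglia. Ptgds, the prostaglandin D synthase that arachnoid cells make in quantity, was at 128, 124 and 83.4 CPM in mMΦ and 0, 0.0893 and 0 CPM in microglia, from 2 microglia counts (3597-fold higher in mMΦ by pooled counts, 95% exact interval 995 to 29706, adjusted p = 1.6e-06). The other called members, named here after their values were seen, were the collagen genes Col1a2 and Col3a1, Igfbp2, Slc6a13, Slc13a4, Foxc1, Crabp2 and Aldh1a2, at means of 2.60 to 24.9 CPM in mMΦ and below 1 CPM in microglia. The count was 4 without microglia replicate 2, 3 without microglia replicate 3 and 5 without mMΦ replicate 1, mMΦ replicate 3 or microglia replicate 4. Col6a1, Slc6a13, Slc13a4, Crabp2 and Mfap5 had no count in any microglia library, and Dpt had none in either group. Sums of monocyte genes were lower in every mMΦ library, at 5.87, 4.44 and 4.04 CPM in mMΦ and 13, 8.35 and 6.72 CPM in microglia. Single members did not all follow the sum. Of the 5 tested, 3 had a positive log2 fold change, with a median of 0.67, and Vcan had counts in mMΦ but none in microglia. The defining genes Ly6c2 and Chil3 were at 0 in all 6 libraries. Neuronal genes summed to 7, 7.78 and 6.99 CPM in mMΦ and 46.2, 11.1 and 16.9 CPM in microglia, with the highest sum in microglia replicate 2 and no overlap. No member of the monocyte, neuron, erythroid, mast, astrocyte, oligodendrocyte or ependymal lists was called by edgeR. At an unadjusted p under 0.05 there were 1, 2, 1, 1, 6, 3 and 3 such members in these 7 lists, DESeq2 called 1, 2, 0, 0, 3, 1 and 3, and voom 2, 1, 0, 0, 4, 0 and 0. The called members of the other lists, again named after their values were seen, were Egfl7 (endothelial), Vtn (mural), Cd4 (lymphoid) and Kmo (dendritic) higher, and Csf3r (neutrophil) and Cd79b (lymphoid) lower in mMΦ. The dendritic list had 2 called members without microglia replicate 3. Cd4 was at 110.4, 118 and 112 CPM in mMΦ and 0.096, 0.313 and 0.532 CPM in microglia. Of the T cell genes, Cd3e, Cd8a and Trac had no count in any of the 6 libraries. Cd3d had counts in mMΦ but none in microglia, and Cd3g had counts in microglia but none in mMΦ. The share of any difference that came from cells carried along was not tested. In bulk libraries, a gene that is lower in each cell and one made by fewer of the sorted cells cannot be told apart.

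Among 30 gene lists of macrophage programmes, 199 of the 797 distinct genes tested were called. The plot of members called per list gives their direction, and the programmes are described below from regulators to receptors, secreted factors and metabolism.

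**Figure D3:**
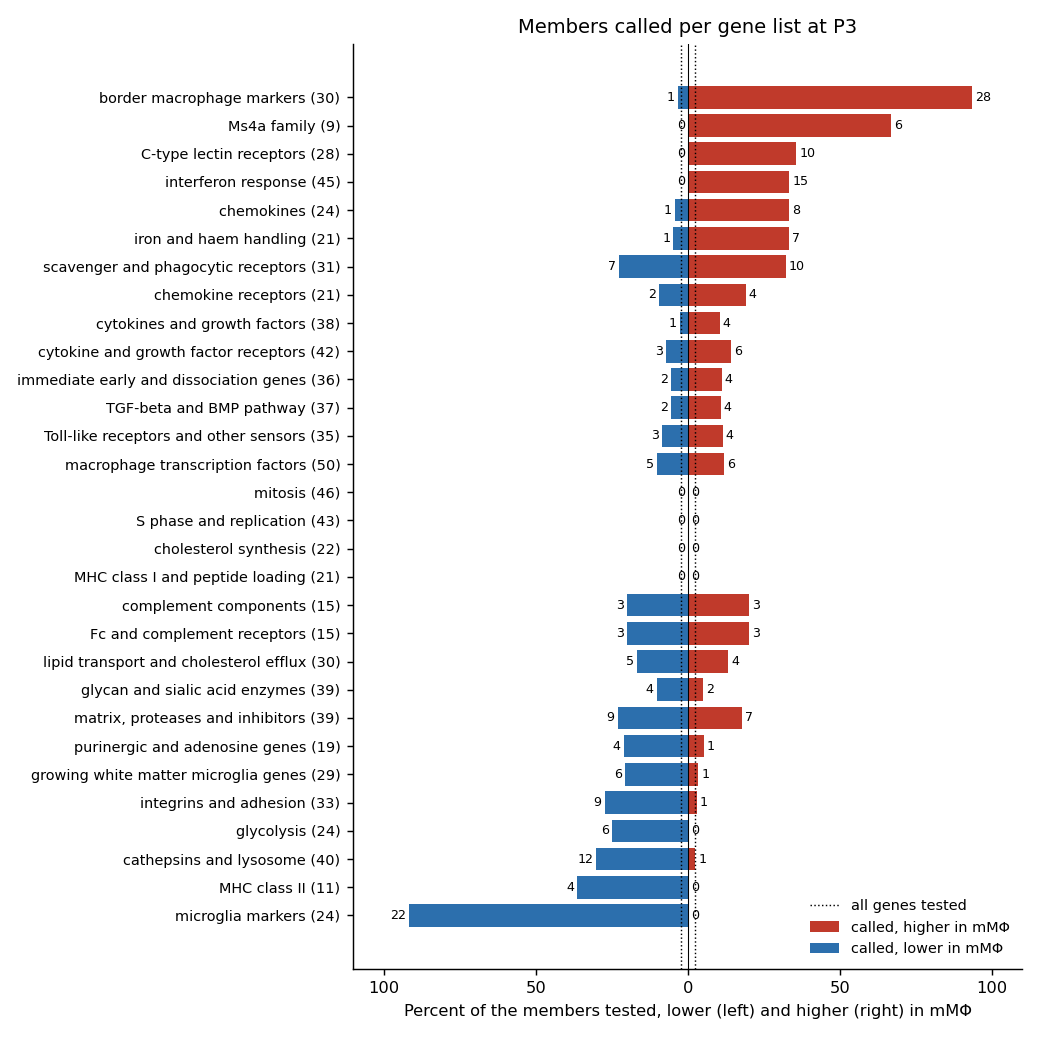
Percent of the tested members of each of 30 gene lists (number tested in parentheses) that were called at P3, lower in mMΦ to the left in blue and higher to the right in red, with the number of genes at the end of each bar. The dotted lines mark the shares over all genes tested, 2.14% lower and 2.43% higher; the interferon response, C-type lectin and Ms4a lists extend only to the right.

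Of 50 transcription factor genes of macrophages, 6 were higher and 5 lower in mMΦ, and 39 were not called. Ahr, the aryl hydrocarbon receptor, was at 51.1, 62.5 and 39.5 CPM in mMΦ and 0, 1.21 and 0 CPM in microglia (log2 fold change 7.03 ± 1.63, adjusted p = 0.0055). Etv1, of the ETS family, was at 58, 63.6 and 61 CPM in mMΦ and 10.4, 8.71 and 8.99 CPM in microglia (log2 fold change 2.66 ± 0.45, adjusted p = 0.0001). Sall1 and Sall3, described above, were among the 5 lower ones. The median log2 fold change of the list was 0.37. Id3 and Nr4a1 were called higher, and Batf3 lower, in mMΦ, but Id3 lost the call when any of the 6 libraries was left out, Nr4a1 without mMΦ replicate 3 or microglia replicate 2, and Batf3 without mMΦ replicate 2 or 3. Irf7, which drives interferon genes, was at 66.1, 66.5 and 46.8 CPM in mMΦ and 4.37, 4.69 and 7.88 CPM in microglia and fell just short of the call (log2 fold change 3.71 ± 1.15, adjusted p = 0.056). Mef2c averaged 556 ± 27.2 CPM in mMΦ and 716 ± 143 CPM in microglia (adjusted p = 0.21). Without microglia replicate 3 the list had 7 called members.

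In the TGF-beta and BMP pathway, 4 of 37 genes were higher and 2 lower in mMΦ, while the median log2 fold change was -0.17. The type I receptor gene Tgfbr1 was at 71.3, 58 and 74.4 CPM in mMΦ and 536, 534 and 451 CPM in microglia (log2 fold change -2.63 ± 0.48, adjusted p = 0.0003). Skil, a target and inhibitor of SMAD signalling, was at 7.8 ± 4.89 CPM in mMΦ and 72.4 ± 0.724 CPM in microglia (log2 fold change -2.89 ± 0.69, adjusted p = 0.0075; not called without mMΦ replicate 1 or 2). The type II receptor gene Tgfbr2 was not called, with 341, 264 and 309 CPM in mMΦ and 254, 386 and 280.0 CPM in microglia (log2 fold change 0.21 ± 0.30, adjusted p = 0.87). Nor was the ligand gene Tgfb1 (178 ± 22.5 CPM in mMΦ and 146 ± 34.5 CPM in microglia, adjusted p = 0.65). Nrros, which holds latent TGF-beta at the surface of microglia and macrophages, was higher in mMΦ at 1152, 1208 and 1246 CPM, against 363, 775 and 645 CPM in microglia (log2 fold change 1.26 ± 0.25, adjusted p = 0.001). The ligand gene Bmp2 was at 48.7, 75 and 142 CPM in mMΦ and at 0.048, 0 and 0 CPM in microglia, from 1 microglia count (5639-fold higher in mMΦ by pooled counts, 95% exact interval 1012 to 222764, adjusted p = 4.3e-09), highest in mMΦ replicate 3. Bmp6 had 3.06, 1.34 and 2.06 CPM in mMΦ and no count in microglia, at least 45.9-fold higher with 3 counts over the group as the floor, and lost the call in 4 of the 6 leave-outs. Without mMΦ replicate 1, 3 genes of the pathway were called.

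Scavenger and phagocytic receptors split, with 10 of 31 higher and 7 lower in mMΦ and a median log2 fold change of -0.67. Stab1, which takes up modified lipoproteins and matrix fragments, was at 1925, 2012 and 1557 CPM in mMΦ and 222, 218 and 250.4 CPM in microglia (log2 fold change 3.04 ± 0.22, adjusted p = 2.3e-12). The fatty acid and lipoprotein receptor gene Cd36 was at 723, 842 and 630.4 CPM in mMΦ and 2.64, 2.14 and 2.03 CPM in microglia (log2 fold change 8.76 ± 0.89, adjusted p = 4.7e-09). Msr1, the class A scavenger receptor, was at 317 ± 36.8 CPM in mMΦ and 3.99 ± 3.57 CPM in microglia (log2 fold change 6.31 ± 0.92, adjusted p = 8e-06). Timd4, which binds the phosphatidylserine that dying cells expose, was at 73.4, 57.5 and 57.7 CPM in mMΦ and 0, 0.0447 and 0 CPM in microglia, from 1 microglia count (4009-fold higher in mMΦ by pooled counts, 95% exact interval 719 to 158374, adjusted p = 5.8e-09). Other receptors for dying cells and lipids were lower in mMΦ. Trem2, a lipid-sensing receptor of phagocytes, was at 289, 278 and 304 CPM in mMΦ and 2242, 1639.7 and 1706 CPM in microglia (log2 fold change -2.95 ± 0.24, adjusted p = 3.3e-11). Havcr2, which encodes TIM-3, averaged 3.81 ± 1.52 CPM in mMΦ and 110.3 ± 34.4 CPM in microglia (log2 fold change -4.71 ± 0.84, adjusted p = 0.00021). Mertk, which binds dying cells through bridging proteins, averaged 114 ± 17.5 CPM in mMΦ and 219.9 ± 75.5 CPM in microglia, and Cd68 1249 ± 11.5 CPM in mMΦ and 1381 ± 290.1 CPM in microglia, and neither was called.

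C-type lectin receptors and the Ms4a family were called in 1 direction. Of 28 lectin receptor genes, 10 were higher and none lower in mMΦ, and of 9 Ms4a genes 6 were higher and none lower. With genes that had no count in 1 group placed at their bound, the median log2 fold changes were 3.58 and 4.79. Clec4d, among the 10 lectin receptor genes, was called in none of the 6 leave-outs. Cd209f, of the DC-SIGN family, was at 287, 249 and 147 CPM in mMΦ and 0.048, 0 and 0.0483 CPM in microglia, from 2 microglia counts (7307-fold higher in mMΦ by pooled counts, 95% exact interval 2022 to 60338, adjusted p = 2.8e-12). Clec10a, a galactose-binding lectin, was at 247, 202 and 242 CPM in mMΦ and 0.048, 0.0447 and 0.193 CPM in microglia (log2 fold change 11.06 ± 0.75, adjusted p = 4e-13). Clec4n, which encodes the fungal receptor Dectin-2, was at 316, 372 and 233 CPM in mMΦ, against 4.85, 0.0893 and 0.29 CPM in microglia (log2 fold change 7.39 ± 0.75, adjusted p = 4.8e-09), with microglia replicate 2 highest among microglia. Clec12a, an inhibitory lectin, averaged 45.1 ± 14.53 CPM in mMΦ and 0.497 ± 0.656 CPM in microglia (log2 fold change 6.46 ± 0.74, adjusted p = 6.6e-08). Ms4a7 was at 1060.3, 1033 and 1025 CPM in mMΦ and 4.27, 0.357 and 15.4 CPM in microglia (log2 fold change 6.99 ± 0.88, adjusted p = 4.4e-07). Ms4a4a was at 308, 301 and 363 CPM in mMΦ and 0.048, 0 and 15.3 CPM in microglia (log2 fold change 7.27 ± 1.10, adjusted p = 1.3e-05). Members of the Cd209, Clec4a and Ms4a clusters are close paralogs, so counts could be split between them in ways the counting does not show. Clec5a (102 ± 15.8 CPM in mMΦ and 121 ± 45.5 CPM in microglia) and Cd302 (119 ± 14.2 CPM in mMΦ and 138 ± 9.25 CPM in microglia) were not called.

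Receptors for antibodies and complement were called in both directions, 3 of 15 higher and 3 lower in mMΦ. Fcgrt, the neonatal Fc receptor that recycles IgG, was at 4324, 3745 and 3919.6 CPM in mMΦ and 498, 719 and 778 CPM in microglia (log2 fold change 2.47 ± 0.19, adjusted p = 6.3e-12). Fcgr2b, the inhibitory Fc receptor, was at 857, 713 and 808 CPM in mMΦ and 129, 229 and 265 CPM in microglia (log2 fold change 1.77 ± 0.21, adjusted p = 1.1e-07). C5ar1, the C5a receptor, was at 819, 715 and 1282 CPM in mMΦ and 114, 235 and 177 CPM in microglia (log2 fold change 2.51 ± 0.28, adjusted p = 4.6e-08). The integrin gene Itgam, whose product is CD11b, was lower in mMΦ at 33.3, 40.3 and 36.7 CPM, against 151, 192 and 90.6 CPM in microglia (log2 fold change -1.98 ± 0.35, adjusted p = 0.00017). Itgax, which encodes CD11c, had no count in mMΦ and 16, 26.39 and 51.8 CPM in microglia, at least 772-fold lower in mMΦ, although its call was lost in 4 of the 6 leave-outs. The activating receptor gene Fcgr3 averaged 1823 ± 44.6 CPM in mMΦ and 1963 ± 467 CPM in microglia, and the signalling chain gene Fcer1g 2257 ± 121 CPM in mMΦ and 1823 ± 268 CPM in microglia, neither called.

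Of 35 sensors of microbes, 4 were higher and 3 lower in mMΦ. Cd14 and Ly96, partners of Tlr4 in binding lipopolysaccharide, were higher in mMΦ. Cd14 was at 418, 407 and 639.6 CPM in mMΦ and 154, 261 and 233 CPM in microglia (log2 fold change 1.16 ± 0.26, adjusted p = 0.0044; not called without mMΦ replicate 3 or microglia replicate 2). Ly96 was at 90.9, 92.1 and 79.5 CPM in mMΦ and 33.2, 27 and 36.5 CPM in microglia (log2 fold change 1.21 ± 0.28, adjusted p = 0.0062; not called without microglia replicate 3). Tlr4 itself was at 195, 159 and 154 CPM in mMΦ and 49.9, 94.5 and 58.9 CPM in microglia and was not called (log2 fold change 1.49 ± 0.48, adjusted p = 0.074). Ly86, a partner of the receptor Cd180, was lower in mMΦ at 676, 639.8 and 584 CPM, against 1922, 1718 and 1943 CPM in microglia (log2 fold change -1.83 ± 0.20, adjusted p = 1.8e-08), as was Pycard, the inflammasome adaptor gene, at 83.5 ± 14.1 CPM in mMΦ, against 209 ± 44.6 CPM in microglia (log2 fold change -1.59 ± 0.28, adjusted p = 0.00018). Tlr8 and Nlrc4 were called higher and Tlr12 lower in mMΦ, each losing the call in 2 to 4 of the 6 leave-outs, and 4 sensors were called without mMΦ replicate 3.

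Of 15 complement genes, 3 were higher and 3 lower in mMΦ. C2, among the higher ones, was called in none of the 6 leave-outs. The 3 lower ones encode the chains of C1q, which starts the classical pathway. C1qb was at 6430.1, 5944 and 5826 CPM in mMΦ, against 12229, 8970.3 and 8879.6 CPM in microglia (log2 fold change -0.97 ± 0.13, adjusted p = 9.5e-07). C1qa (3206 ± 132 CPM in mMΦ and 3947 ± 167 CPM in microglia) and C1qc (5812 ± 74.6 CPM in mMΦ and 7771 ± 1232 CPM in microglia) were called too, but C1qa lost the call without mMΦ replicate 3 or microglia replicate 4, and C1qc without microglia replicate 4, where 3 complement genes were called in all. Cfp, properdin of the alternative pathway, was at 719, 647 and 793 CPM in mMΦ and 0.288, 3.08 and 0.338 CPM in microglia (log2 fold change 9.13 ± 1.14, adjusted p = 4e-07). Cd55, which protects cells from complement, had 10.3, 3.95 and 3.37 CPM in mMΦ and no count in microglia, at least 126-fold higher.

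Of 24 chemokine genes, 8 were higher and 1 was lower in mMΦ. Pf4, also known as Cxcl4, was at 4458, 4762 and 4729 CPM in mMΦ and 0.96, 1.88 and 17.1 CPM in microglia (log2 fold change 9.35 ± 0.83, adjusted p = 2.2e-10). Ppbp, its neighbour in the platelet chemokine cluster, had 15.1, 17.6 and 11.6 CPM in mMΦ and no count in microglia, at least 315-fold higher. The neutrophil attractant genes Cxcl1 and Cxcl2 varied among mMΦ. Cxcl1 was at 11.6, 14.3 and 81.7 CPM in mMΦ and 0, 0 and 0.193 CPM in microglia (log2 fold change 10.48 ± 1.71, adjusted p = 5.6e-05). Cxcl2 was at 20.3, 45.5 and 234 CPM in mMΦ and 6.96, 1.65 and 0.338 CPM in microglia (log2 fold change 5.06 ± 0.92, adjusted p = 0.00027). Both were highest in mMΦ replicate 3, and both stayed called without it, at log2 fold changes of 9.07 and 3.47. Ccl6 was lower in mMΦ, at 164, 78.5 and 157 CPM against 355, 401 and 423 CPM in microglia (log2 fold change -1.82 ± 0.30, adjusted p = 5.2e-05). Ccl3 was at 39.6, 31.9 and 158 CPM in mMΦ and 184, 269.9 and 151 CPM in microglia and was not called (adjusted p = 0.073), with mMΦ replicate 3 inside the range of microglia.

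Chemokine receptors followed no single direction, with 4 of 21 higher and 2 lower in mMΦ. Cxcr3, among the 4, was called in none of the 6 leave-outs, and each leave-out had 3 higher. Ccr1, a receptor for inflammatory CC chemokines, was at 559.9, 641 and 506 CPM in mMΦ and 29.5, 48.6 and 76.9 CPM in microglia (log2 fold change 3.74 ± 0.60, adjusted p = 3.9e-05). Fpr1, a receptor for bacterial formyl peptides, was at 18.5, 35 and 63.8 CPM in mMΦ and 0.048, 0 and 0 CPM in microglia, from 1 microglia count (2489.6-fold higher in mMΦ by pooled counts, 95% exact interval 446 to 98367, adjusted p = 0.00033). Of 42 cytokine and growth factor receptors, 6 were higher and 3 lower in mMΦ, and the median log2 fold change was -0.04. Nrp1, a co-receptor for VEGF and semaphorins, was at 804, 979 and 1024 CPM in mMΦ and 292, 279 and 258 CPM in microglia (log2 fold change 1.85 ± 0.23, adjusted p = 2.4e-07). Il21r, the interleukin 21 receptor, averaged 223 ± 41.2 CPM in mMΦ and 75.7 ± 15.7 CPM in microglia (log2 fold change 1.63 ± 0.34, adjusted p = 0.0017). Ifngr1, a chain of the interferon gamma receptor, was lower in mMΦ at 555 ± 76.6 CPM, against 1011 ± 279 CPM in microglia (log2 fold change -0.85 ± 0.16, adjusted p = 0.00047). Csf3r, the G-CSF receptor, was at 12.7, 13.8 and 13.1 CPM in mMΦ and 39.8, 109.7 and 87.9 CPM in microglia (log2 fold change -2.30 ± 0.43, adjusted p = 0.00042).

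Of 38 cytokine and growth factor genes, 4 were higher and 1 lower in mMΦ. Apart from Bmp2, the insulin-like growth factor gene Igf2 had 1.13, 1.46 and 1.22 CPM in mMΦ and no count in microglia, at least 27.1-fold higher. Il1b was at 25.9, 18.2 and 366 CPM in mMΦ and 7.63, 6.7 and 24.4 CPM in microglia (log2 fold change 3.53 ± 1.04, adjusted p = 0.042). Its highest library was mMΦ replicate 3, without which the log2 fold change was 0.94 (adjusted p = 0.80). Il10, an anti-inflammatory cytokine gene, was called at 4.32 ± 2.28 CPM in mMΦ and 0.0161 ± 0.0279 CPM in microglia, but in none of the 6 leave-outs. Pdgfb averaged 2.82 ± 1.16 CPM in mMΦ and 34 ± 13.6 CPM in microglia (log2 fold change -3.39 ± 0.86, adjusted p = 0.014; called in 3 of the 6 leave-outs). Spp1, osteopontin, was at 172, 119.7 and 65.6 CPM in mMΦ and 583, 2263 and 645 CPM in microglia and was not called (log2 fold change -3.62 ± 1.43, adjusted p = 0.17). The list had 3 called members without mMΦ replicate 1, mMΦ replicate 3 or microglia replicate 2, and 2 without microglia replicate 3.

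Interferon response genes, which type I interferon induces in most cells, were called in 1 direction. Of 45 tested, 15 were higher and none lower in mMΦ, 44 had a positive log2 fold change, and the median was 2.54 against -0.03 over all genes tested. Their summed level was 3623, 3481 and 2673 CPM in mMΦ and 738, 642 and 861 CPM in microglia, with no overlap. The called members named by rule belong to the Ifi200 family of DNA-binding proteins. Ifi207 was at 195, 192 and 176 CPM in mMΦ and 0.048, 3.08 and 15.3 CPM in microglia (log2 fold change 5.98 ± 1.02, adjusted p = 0.00012). Ifi211 was at 21.5, 24.9 and 20.8 CPM in mMΦ and 0.912, 0.804 and 0 CPM in microglia (log2 fold change 5.22 ± 1.23, adjusted p = 0.0064). Ifi203 had 14.7, 21.3 and 20.4 CPM in mMΦ and no count in microglia, at least 400.1-fold higher. Ifi204 was at 126 ± 33.5 CPM in mMΦ and 6.04 ± 5.83 CPM in microglia (log2 fold change 4.64 ± 1.22, adjusted p = 0.018; not called without microglia replicate 2 or 3). These genes are close paralogs that lie side by side, so reads could be shared among them. The other 11 called members, listed after their values were seen, were Ifit3, Ifitm2, Ifitm3, Oas1a, Oasl2, Bst2, Rtp4, Ifi27l2a, Trim30a, Slfn2 and Slfn5. Of these, the antiviral membrane protein gene Ifitm3 was at 272, 197 and 138 CPM in mMΦ and 16.1, 8.89 and 9.57 CPM in microglia (log2 fold change 4.07 ± 0.59, adjusted p = 7.8e-06). Bst2, or tetherin, was at 392.3, 408 and 279.7 CPM in mMΦ and 103, 116 and 88.3 CPM in microglia (log2 fold change 1.57 ± 0.20, adjusted p = 5.6e-07). The list had 11 called members without microglia replicate 2, 11 without microglia replicate 4, 14 without mMΦ replicate 3 and 7 with microglia replicate 2 alone on the microglia side, all higher in mMΦ. The list was called in the same direction at the ages around P3, with 12 of 45 higher in mMΦ at E14.5 and 20 at P10, none lower at either age.

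The promoters of 3 of these genes are shown because interferon acts on such genes through an element whose core is a pair of GAAA, 2 bases apart. The sequences are the RefSeq windows of GRCm38.p6, from 250 bases before to 50 bases after the start, on the minus strand. Capitals mark the pair where the window holds it. Ifi207 lies at chr1:173741760-173742059, Ifi211 at chr1:173912997-173913296 and the first of 2 windows of Ifi203 at chr1:173942623-173942922. The first Ifi203 window holds no such pair, while the second, not shown, does.
Ifi207: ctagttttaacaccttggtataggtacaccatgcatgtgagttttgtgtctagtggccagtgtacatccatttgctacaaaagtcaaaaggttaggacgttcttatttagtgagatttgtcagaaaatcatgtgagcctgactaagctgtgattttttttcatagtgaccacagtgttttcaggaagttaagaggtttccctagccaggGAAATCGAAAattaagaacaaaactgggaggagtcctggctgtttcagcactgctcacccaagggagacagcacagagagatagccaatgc
Ifi211: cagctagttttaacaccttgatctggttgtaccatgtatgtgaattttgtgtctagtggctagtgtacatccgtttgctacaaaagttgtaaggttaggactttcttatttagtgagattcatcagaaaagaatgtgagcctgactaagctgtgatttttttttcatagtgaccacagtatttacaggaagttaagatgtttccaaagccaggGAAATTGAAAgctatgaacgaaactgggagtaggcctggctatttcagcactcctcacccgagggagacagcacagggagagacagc
Ifi203: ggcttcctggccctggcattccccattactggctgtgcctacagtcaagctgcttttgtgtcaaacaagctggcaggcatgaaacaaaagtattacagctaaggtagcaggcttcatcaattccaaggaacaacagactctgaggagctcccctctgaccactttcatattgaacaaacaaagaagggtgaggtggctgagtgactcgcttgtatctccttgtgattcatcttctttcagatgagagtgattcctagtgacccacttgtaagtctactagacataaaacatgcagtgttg
Searched on both strands, the pair occurred in at least 1 window of 10 of the 12 called interferon genes with an entry (83.3%), of 12 of the 21 with an entry that were not called (57.1%), and of 3.99% of all 27025 genes of the table. A match of these letters is a description and not a bound site. Ifi204 had no entry in the table.

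Genes of antigen presentation on MHC class II were lower in mMΦ or not called, 4 of 11 and 7 of 11. H2-DMa, which helps load peptides, was at 8.59, 5.25 and 3.87 CPM in mMΦ and 90.5, 92.2 and 83.5 CPM in microglia (log2 fold change -4.03 ± 0.34, adjusted p = 4e-11). H2-DMb1 was at 13.3 ± 3.95 CPM in mMΦ and 45.6 ± 23.3 CPM in microglia (log2 fold change -1.89 ± 0.34, adjusted p = 0.00024). The class II chain gene H2-Ab1 was at 3.48, 3.06 and 2.4 CPM in mMΦ and 19.4, 18.2 and 27.6 CPM in microglia (log2 fold change -2.95 ± 0.78, adjusted p = 0.018; called in 2 of the 6 leave-outs). Cd74, the invariant chain, averaged 98.4 ± 9.47 CPM in mMΦ and 230.1 ± 46.6 CPM in microglia and was not called (adjusted p = 0.22). Without mMΦ replicate 1 or mMΦ replicate 3, 2 class II genes were called. Of 21 class I and peptide-loading genes none was called by edgeR, 6 had an unadjusted p under 0.05, DESeq2 called 2 and voom 3. With edgeR, 3 were called higher in mMΦ without microglia replicate 4, and 1 lower in mMΦ without microglia replicate 2. The list includes B2m at 2351 ± 318 CPM in mMΦ and 2675 ± 548 CPM in microglia.

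Of 19 purinergic and adenosine genes, 4 were lower and 1 was higher in mMΦ, although the median log2 fold change was 0.27. Besides P2ry12, the receptor gene P2ry13 was at 419, 520.1 and 528 CPM in mMΦ and 1151, 2037 and 1523 CPM in microglia (log2 fold change -1.55 ± 0.23, adjusted p = 7.4e-06). Adora3, an adenosine receptor gene, was at 0.883 ± 0.695 CPM in mMΦ and 85.2 ± 13 CPM in microglia (log2 fold change -6.49 ± 1.32, adjusted p = 0.0013). The ATP-gated channel gene P2rx4 was the one called higher, at 451, 316 and 346 CPM in mMΦ and 68.7, 86 and 125 CPM in microglia (log2 fold change 2.09 ± 0.22, adjusted p = 1.4e-08). Of 33 integrin and adhesion genes, 9 were lower and 1 higher in mMΦ. Without mMΦ replicate 1, mMΦ replicate 2 or microglia replicate 4, 6 were lower. Adgrg1, an adhesion receptor also named GPR56, was at 0, 1.46 and 0.0421 CPM in mMΦ and 238, 322 and 224 CPM in microglia (log2 fold change -8.74 ± 0.94, adjusted p = 1.6e-08). Selplg, the P-selectin ligand, was at 64.3, 77.4 and 57.5 CPM in mMΦ and 479, 813 and 365 CPM in microglia (log2 fold change -3.12 ± 0.38, adjusted p = 2.8e-07). Vcam1 was the gene called higher, with 25.7, 19 and 114 CPM in mMΦ and 2.35, 0.848 and 11 CPM in microglia (log2 fold change 4.19 ± 0.76, adjusted p = 0.00027). Without mMΦ replicate 3, its highest library, the log2 fold change was 3.00. Adgre1, which encodes the macrophage antigen F4/80, averaged 1625 ± 112 CPM in mMΦ and 1764 ± 313 CPM in microglia (adjusted p = 1).

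Matrix proteins, proteases and their inhibitors were called in 16 of 39 cases, 7 higher and 9 lower in mMΦ, with a median log2 fold change of 2.03 as fitted and 1.06 with genes at 0 in 1 group placed at their bound. The gelatinase gene Mmp9 was at 307, 193 and 469 CPM in mMΦ and 0.048, 0.0447 and 0.0967 CPM in microglia (log2 fold change 11.96 ± 1.11, adjusted p = 5.5e-10). The serpin gene Serpinb8 was at 133, 131 and 157 CPM in mMΦ and 0.048, 0.0893 and 0.0483 CPM in microglia (log2 fold change 11.08 ± 1.19, adjusted p = 2.4e-08). Thbd, thrombomodulin, averaged 31 ± 4.09 CPM in mMΦ and 0.113 ± 0.195 CPM in microglia (log2 fold change 9.65 ± 1.26, adjusted p = 1.3e-06). Cst3, cystatin C, an inhibitor of cathepsins, was at 2812, 2527 and 2115 CPM in mMΦ and 13603, 10659.6 and 10162 CPM in microglia (log2 fold change -2.51 ± 0.24, adjusted p = 1.4e-09). Spint1, an inhibitor of serine proteases, was at 0.196 ± 0.305 CPM in mMΦ and 64.1 ± 24.7 CPM in microglia (log2 fold change -8.39 ± 1.55, adjusted p = 0.00039). Fibroblast and leptomeningeal genes, whose sums are given above, moved with the matrix genes that were higher in mMΦ, and their part in these was not tested.

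Lysosomal genes were lower in mMΦ in 12 of 40 cases and higher in 1. The cathepsin genes Ctsd and Ctsl encode major lysosomal proteases. Ctsd was at 2085, 2036 and 2126 CPM in mMΦ and 8834, 12399.6 and 13252 CPM in microglia (log2 fold change -2.52 ± 0.18, adjusted p = 7e-13). Ctsl was at 1339.9, 1187 and 1233 CPM in mMΦ and 3943, 6497 and 5227 CPM in microglia (log2 fold change -2.25 ± 0.18, adjusted p = 1.5e-11). Ctss was at 1416 ± 157 CPM in mMΦ and 5795 ± 1932 CPM in microglia (log2 fold change -2.21 ± 0.23, adjusted p = 1.1e-08). Ctsz was at 1217 ± 38.4 CPM in mMΦ and 3796 ± 315 CPM in microglia (log2 fold change -1.94 ± 0.16, adjusted p = 4e-11). Lgmn, the asparaginyl endopeptidase, averaged 2743 ± 299 CPM in mMΦ and 6046 ± 1426 CPM in microglia (log2 fold change -1.18 ± 0.17, adjusted p = 4.1e-06). Ctsc, which activates granule proteases, was the exception, at 4222, 3983 and 3428 CPM in mMΦ and 664, 1146 and 973 CPM in microglia (log2 fold change 2.15 ± 0.17, adjusted p = 8.5e-12). The list summed to 43585, 44172 and 44135 CPM in mMΦ and 63089, 97791 and 96466 CPM in microglia, without overlap. Ctsa (2298 ± 22.8 CPM in mMΦ and 2578 ± 496 CPM in microglia), Lamp1 (2386 ± 168 CPM in mMΦ and 2468 ± 834 CPM in microglia) and Hexa (1790.4 ± 144 CPM in mMΦ and 1742 ± 69.4 CPM in microglia) were not called. The median log2 fold change of the 40 genes was -0.27. Outside the list, Hgsnat, which acetylates heparan sulphate in the lysosome, was higher in mMΦ at 3014, 2729 and 2731 CPM, against 50.2, 134 and 254 CPM in microglia (log2 fold change 4.49 ± 0.50, adjusted p = 4.1e-08).

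Genes of lipid transport were called in both directions, 4 of 30 higher and 5 lower in mMΦ. Apoe, the main lipoprotein component made by macrophages of the brain, was at 28918, 30876 and 23195 CPM in mMΦ and 14241, 15301 and 16389.8 CPM in microglia and was not called (log2 fold change 0.42 ± 0.46, adjusted p = 0.78), although the libraries did not overlap. Pltp, which transfers phospholipids between lipoproteins, was at 364, 313 and 220.4 CPM in mMΦ and 0.144, 5.45 and 5.17 CPM in microglia (log2 fold change 6.85 ± 0.84, adjusted p = 2.6e-07). Lpl, lipoprotein lipase, was at 32, 34.1 and 28.6 CPM in mMΦ and 569, 906 and 592 CPM in microglia (log2 fold change -4.70 ± 0.92, adjusted p = 0.00074). The sterol exporter gene Abcg1 was at 25.6, 17.9 and 5.93 CPM in mMΦ and 166, 293 and 413 CPM in microglia (log2 fold change -4.02 ± 0.74, adjusted p = 0.00032). Lpcat2, which makes phosphatidylcholine and platelet-activating factor, was lower in mMΦ as well, at 126 ± 26.39 CPM against 1130.5 ± 192 CPM in microglia (log2 fold change -3.16 ± 0.30, adjusted p = 8.3e-10). The related sterol exporter gene Abca1 averaged 272 ± 28.3 CPM in mMΦ and 397 ± 86.8 CPM in microglia (adjusted p = 0.53). None of 22 cholesterol synthesis genes was called by edgeR, DESeq2 or voom, and 0 had an unadjusted p under 0.05.

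Iron and haem genes were higher in mMΦ in 7 of 21 cases and lower in 1. Trf, transferrin, was at 4209, 3527 and 4183 CPM in mMΦ and 1036, 1615 and 1272 CPM in microglia (log2 fold change 1.52 ± 0.14, adjusted p = 4.6e-10). Slc40a1, the iron exporter ferroportin, was at 1473, 1439 and 1656 CPM in mMΦ and 227, 367 and 496 CPM in microglia (log2 fold change 2.33 ± 0.35, adjusted p = 1e-05). The ferroxidase gene Cp was at 126, 99.5 and 94.4 CPM in mMΦ and 2.06, 3.84 and 0.338 CPM in microglia (log2 fold change 5.64 ± 0.98, adjusted p = 0.00015). Blvrb, a biliverdin reductase, was at 529 ± 60.0 CPM in mMΦ and 77.5 ± 16.9 CPM in microglia (log2 fold change 2.50 ± 0.28, adjusted p = 4.3e-08). The ferritin genes Fth1 (3329 ± 302 CPM in mMΦ and 2449 ± 688 CPM in microglia) and Ftl1 (1560.0 ± 55.5 CPM in mMΦ and 1955 ± 418 CPM in microglia) were not called. The erythroid list summed to 115, 132 and 126 CPM in mMΦ and 28.4, 53 and 73.1 CPM in microglia, nearly all of it Epor, at 123 ± 9.32 CPM in mMΦ and 50.6 ± 22.2 CPM in microglia, and none of its members was called.

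Glycolytic genes were lower in mMΦ in 6 of 24 cases and higher in none. Ldhb, a lactate dehydrogenase subunit, was at 12.1, 11.1 and 10.9 CPM in mMΦ and 399.6, 409 and 409 CPM in microglia (log2 fold change -5.37 ± 0.53, adjusted p = 2.9e-09). The other subunit gene, Ldha, averaged 374 ± 17.3 CPM in mMΦ and 482 ± 112 CPM in microglia and was not called (adjusted p = 0.15). Pfkfb3, which drives glycolysis through fructose bisphosphate, was at 7.25 ± 1.33 CPM in mMΦ and 62.6 ± 21.3 CPM in microglia (log2 fold change -3.02 ± 0.63, adjusted p = 0.0018). Outside the list, Phgdh, the entry enzyme of serine synthesis, was at 0.796, 1.03 and 0.168 CPM in mMΦ and 76, 126 and 123 CPM in microglia (log2 fold change -7.40 ± 1.03, adjusted p = 3e-06). Among 39 glycan enzyme genes, 2 were higher and 4 lower in mMΦ, with 3 called in all without mMΦ replicate 3. Cmah, which makes N-glycolylneuraminic acid, had 47.5, 48.8 and 89.6 CPM in mMΦ and no count in any microglia library, at least 1322-fold higher.

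Of 29 genes of the microglia that gather in growing white matter, 6 were lower and 1 was higher in mMΦ. Cd9, a tetraspanin, was at 22.8, 25.4 and 11.2 CPM in mMΦ and 843, 1701 and 1287 CPM in microglia (log2 fold change -6.17 ± 0.43, adjusted p = 6.4e-13). Its relative Cd81, outside the list, was at 181, 177 and 107 CPM in mMΦ and 1568, 2907 and 2319 CPM in microglia (log2 fold change -3.90 ± 0.28, adjusted p = 8.6e-13). Lgals1, galectin 1, ran the other way at 1177, 1057 and 1143 CPM in mMΦ, against 67.5, 38.9 and 64.3 CPM in microglia (log2 fold change 4.12 ± 0.63, adjusted p = 1.6e-05). Tyrobp, the adaptor of Trem2, was at 1479, 1545 and 1428 CPM in mMΦ and 2658, 1344 and 1978 CPM in microglia and was not called (adjusted p = 0.063).

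Further genes named for the size of their difference belong to none of these programmes. Snx2, an endosomal sorting nexin, was higher in mMΦ at 1938 ± 394 CPM, against 294 ± 60.0 CPM in microglia (log2 fold change 2.72 ± 0.22, adjusted p = 1.2e-11). Igfbp4, which binds insulin-like growth factors, was at 2459 ± 387 CPM in mMΦ and 352 ± 93.5 CPM in microglia (log2 fold change 2.65 ± 0.25, adjusted p = 1.2e-09). The retinoic acid receptor gene Rara had 20.1, 22.3 and 22.7 CPM in mMΦ and 0, 0 and 0.0483 CPM in microglia, from 1 microglia count (1389-fold higher in mMΦ by pooled counts, 95% exact interval 249 to 54903, adjusted p = 0.00073). Egfr, the EGF receptor, was at 25.6, 40.6 and 27.5 CPM in mMΦ and 0, 0 and 0.193 CPM in microglia (log2 fold change 11.10 ± 2.34, adjusted p = 0.0019). Slc25a24, a mitochondrial carrier, had 25.9, 37.8 and 23.4 CPM in mMΦ and no count in microglia, at least 619.9-fold higher. Among the genes lower in mMΦ was the potassium channel gene Kcnk12, at 0, 0.153 and 0 CPM in mMΦ and 18.5, 42.2 and 28.2 CPM in microglia (log2 fold change -8.87 ± 2.04, adjusted p = 0.005). Another channel gene, Kcnd1, was lower as well (log2 fold change -8.91 ± 2.15, adjusted p = 0.0091; not called without mMΦ replicate 2 or 3). The lipid flippase gene Atp8a2 was at 0.209, 0.0383 and 0.337 CPM in mMΦ and 50.04, 72.3 and 33.1 CPM in microglia (log2 fold change -7.94 ± 1.66, adjusted p = 0.0017). Tmsb4x, thymosin beta 4, was at 14217, 14411 and 13593 CPM in mMΦ and 25022, 16918 and 23260.1 CPM in microglia (log2 fold change -1.01 ± 0.28, adjusted p = 0.029). It was called in 1 of the 6 leave-outs.

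Cell cycle genes did not pass the test in either direction. None of 43 S phase genes and none of 46 mitosis genes was called by edgeR, with median log2 fold changes of -0.34 and -0.89. At an unadjusted p under 0.05 there were 1 and 2 such genes. Mitosis genes summed to 1643, 1899 and 1136 CPM in mMΦ and 2872, 3113 and 1956 CPM in microglia, a sum that was lower in every mMΦ library. S phase genes summed to 1846, 2021 and 1697 CPM in mMΦ and 2003, 3055 and 1968 CPM in microglia, and these sums overlapped. Top2a, the topoisomerase of dividing cells, was at 67.3, 121 and 62.4 CPM in mMΦ and 177, 187 and 66.3 CPM in microglia (log2 fold change -1.24 ± 1.16, adjusted p = 0.71), where microglia replicate 4 lay inside the range of mMΦ.

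Immediate early genes, which also respond to the dissociation of tissue, set mMΦ replicate 3 apart. Their sum was 3733, 4108 and 13883 CPM in mMΦ and 4444, 6369.7 and 9058 CPM in microglia. Fos was at 397, 346 and 1514 CPM in mMΦ and 161, 297 and 921 CPM in microglia, and Zfp36 at 196, 244 and 1390.0 CPM in mMΦ and 246, 429.5 and 859.7 CPM in microglia, and neither was called. Of 36 genes, 4 were higher and 2 lower in mMΦ, but the counts were 1 and 6 without mMΦ replicate 3, and 2 and 0 without microglia replicate 2. Nr4a1 was at 29.8, 50.9 and 544 CPM in mMΦ and 16.1, 24.2 and 31.1 CPM in microglia (log2 fold change 3.33 ± 0.80, adjusted p = 0.0083). Without mMΦ replicate 3 its log2 fold change was 0.99 (adjusted p = 0.58). Hspa1a, a heat shock gene, had 8.88, 4.56 and 85.2 CPM in mMΦ and 5.04, 5.67 and 2.46 CPM in microglia (log2 fold change 3.07 ± 0.80, adjusted p = 0.016). Without that library its log2 fold change was 0.80 (adjusted p = 0.73). Dusp6, a phosphatase of ERK, was even across mMΦ at 813, 941 and 765 CPM, against 302, 500.3 and 551 CPM in microglia (log2 fold change 1.22 ± 0.26, adjusted p = 0.0022). It was called in all 6 leave-outs.

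**Figure D4:**
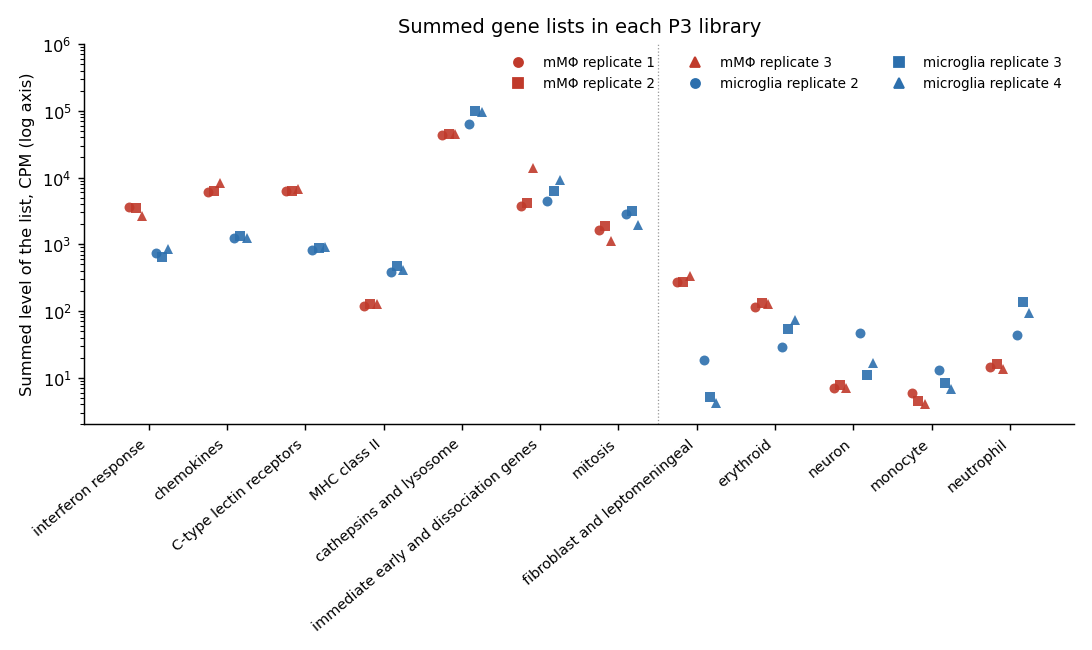
Summed CPM of 12 gene lists in each of the 6 P3 libraries on a log axis, with mMΦ in red to the left of microglia in blue and 1 symbol per replicate; lists of other cell types stand right of the dotted line. mMΦ replicate 3 has the highest immediate early sum (13883 CPM, against 3733 and 4108 CPM in the other mMΦ libraries), and fibroblast genes are higher in all 3 mMΦ libraries.

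The P3 difference was set beside those at E14.5 and P10, each with 3 libraries of mMΦ and 3 of microglia of the same genotype and strain. At E14.5, 415 genes were called (2.43%) and at P10 1121 (6.57%). Of the 780 genes called at P3, 337 were called in the same direction at E14.5, which is 43.2% of the P3 calls and 81.2% of the E14.5 calls. At P10 526 were, or 67.4% of the P3 calls and 46.9% of the P10 calls, and 2 were called in the opposite direction. A gene that passes at 1 age and not at another is not thereby shown to differ, so the difference itself was tested with an interaction term. Between P3 and E14.5, 12 of 17064 genes differed (0.0703%), and between P3 and P10, 32 did (0.188%). Both contrasts use the P3 libraries.

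Between P3 and E14.5, 9 genes had a difference more towards mMΦ at P3 and 3 more towards microglia. The P3 values of those described above are not repeated. Cd163 was at 68.2, 72.9 and 74 CPM in mMΦ and 0.318, 0.666 and 0.359 CPM in microglia at E14.5, so that its log2 fold change at P3 exceeded that at E14.5 by 5.91 ± 0.78 (adjusted p = 0.00013). Mmp9 was at 19.2, 20.2 and 19.7 CPM in mMΦ and 0.454, 0.809 and 0.798 CPM in microglia at E14.5. The difference was 7.13 ± 1.21 (adjusted p = 0.0057; 0.056 without microglia P3 replicate 3). Cbr2, a carbonyl reductase gene, was at 858 ± 105 CPM in mMΦ and 4.32 ± 3.58 CPM in microglia at P3, against 20.9 ± 3.75 CPM in mMΦ and 1.97 ± 1.09 CPM in microglia at E14.5. The difference was 4.37 ± 0.88 (adjusted p = 0.027). Cd209f (6.71 ± 1.20, adjusted p = 0.0085), Clec12a (4.50 ± 0.87, adjusted p = 0.023) and Ctsc (1.14 ± 0.23, adjusted p = 0.023) differed in the same direction. Pmepa1, a TGF-beta target and inhibitor, was lower in mMΦ at both ages, at 17.1, 25.9 and 42 CPM in mMΦ and 143, 141 and 135 CPM in microglia at P3 and 4.29, 2.12 and 2.62 CPM in mMΦ and 119, 114 and 117 CPM in microglia at E14.5. The difference was 2.85 ± 0.43 (adjusted p = 0.001). Cd40 and Ifi203, whose levels were below the 20 CPM asked of named genes and which are given after their values were seen, completed the 9.

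The 3 genes that moved towards microglia were Gadd45g, Ighm and Clec4a3. Clec4a3, a lectin receptor gene, was at 254, 225 and 273 CPM in mMΦ and 97.1, 129 and 146 CPM in microglia at P3 and at 115, 134 and 129 CPM in mMΦ and 11.8, 16.4 and 19.4 CPM in microglia at E14.5. The difference was -2.11 ± 0.41 (adjusted p = 0.023). Its mean level was higher at P3 than at E14.5 in both populations. Ighm, the immunoglobulin heavy chain mu gene, was at 97.3, 91.2 and 13.9 CPM in mMΦ and 655, 655 and 753 CPM in microglia at P3, against 432 ± 43.3 CPM in mMΦ and 651 ± 18.2 CPM in microglia at E14.5. The difference was -2.82 ± 0.59 (adjusted p = 0.047), with mMΦ replicate 3 lowest at P3. Of the 10 differences named by rule, Cd163 and Pmepa1 stayed called in all 12 leave-outs of the libraries involved, Mmp9 in 11 and Cd209f in 10, and the other 6 in 2 to 5.

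**Figure D5:**
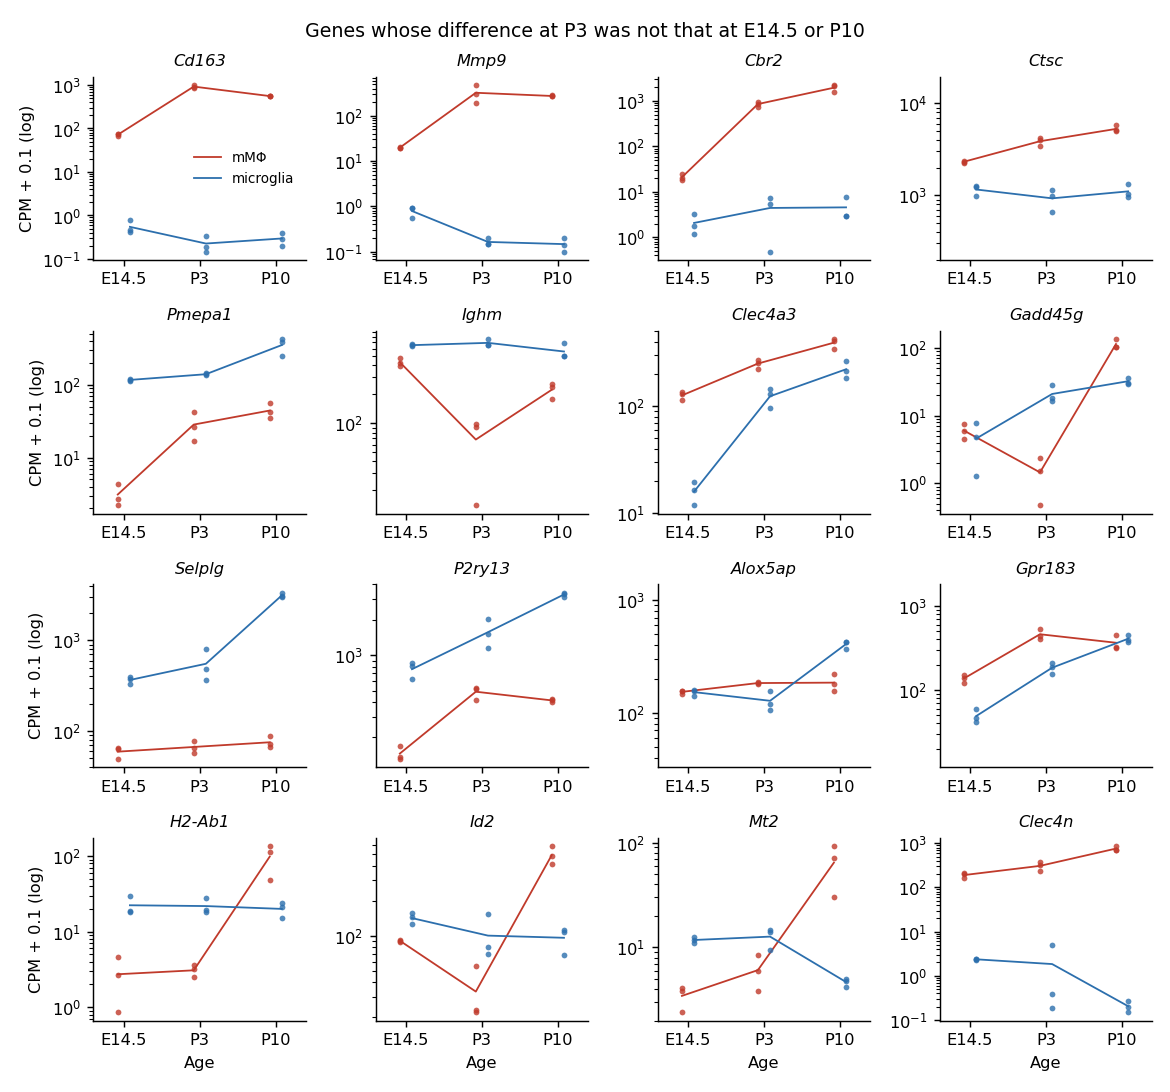
Level of 16 genes in mMΦ (red) and microglia (blue) at E14.5, P3 and P10, as CPM + 0.1 on a log axis, with 1 point per library (3 per group) and lines through the group means. Cd163 is higher at P3 than at E14.5 in mMΦ, Selplg and P2ry13 reach their highest level in microglia at P10, and Id2, Mt2 and H2-Ab1 lie below microglia at P3 and above them at P10 in mMΦ.

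Between P3 and P10, 6 genes had a difference more towards mMΦ at P3 and 26 more towards microglia. Among the 6, P2ry13 was at 489 ± 60.6 CPM in mMΦ and 1570.5 ± 445 CPM in microglia at P3, against 413 ± 13.5 CPM in mMΦ and 3285 ± 122 CPM in microglia at P10. The difference was 1.44 ± 0.31 (adjusted p = 0.037). Selplg was at 74.8 ± 11.1 CPM in mMΦ and 3151 ± 189 CPM in microglia at P10. The difference was 2.28 ± 0.51 (adjusted p = 0.044). Alox5ap, which serves leukotriene synthesis, was at 185, 179 and 187 CPM in mMΦ and 120.0, 158 and 106 CPM in microglia at P3 and at 179, 156 and 222 CPM in mMΦ and 424, 429 and 372 CPM in microglia at P10. The difference was 1.48 ± 0.24 (adjusted p = 0.0011). Gpr183, a receptor for oxysterols, Cd164 and Slco2b1 completed the 6. Alox5ap stayed called in all 12 leave-outs, Cd164 in 11 and the other 4 in 1 or 2.

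The 26 genes include several whose mean was lower in mMΦ than in microglia at P3 and higher at P10. Id2, a repressor of basic helix-loop-helix factors, was at 21.9, 22.8 and 54.7 CPM in mMΦ and 79.4, 69.1 and 153 CPM in microglia at P3 and at 415, 587 and 482 CPM in mMΦ and 113, 68 and 108 CPM in microglia at P10. The difference was -3.90 ± 0.66 (adjusted p = 0.0022). Gadd45g, a stress-response gene, was at 0.377, 2.26 and 1.43 CPM in mMΦ and 17.9, 28.1 and 16.6 CPM in microglia at P3 and at 135, 104 and 104 CPM in mMΦ and 36.6, 30.4 and 29.7 CPM in microglia at P10. The difference was -5.79 ± 0.87 (adjusted p = 0.00035). The metallothionein gene Mt2 was at 5.97 ± 2.31 CPM in mMΦ and 12.6 ± 2.75 CPM in microglia at P3 and at 64.4 ± 31.6 CPM in mMΦ and 4.57 ± 0.409 CPM in microglia at P10. The difference was -5.55 ± 0.86 (adjusted p = 0.00046). H2-Ab1 averaged 98.6 ± 44.5 CPM in mMΦ and 19.9 ± 4.56 CPM in microglia at P10. The difference was -5.25 ± 1.07 (adjusted p = 0.018; called in 4 of the 12 leave-outs). Clec4n and Colec12, higher in mMΦ at both ages, stood further from microglia at P10 on the log2 scale. Colec12 was at 543, 517 and 568 CPM in mMΦ and 5.28, 4.38 and 9.57 CPM in microglia at P3. At P10 it was at 350.3, 352 and 330 CPM in mMΦ and 0.0973, 0.17 and 0.143 CPM in microglia. The level of Colec12 was thus lower at P10 in both populations, and near 0 in microglia. For Clec4n the difference was -5.32 ± 1.01 (adjusted p = 0.0096) and was -2.17 without microglia P3 replicate 2 (adjusted p = 0.65). Gadd45g, Mt2 and Id2 were called in all 12 leave-outs.

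Immediate early and dissociation genes moved with this contrast. Their sum was 26339.6 ± 369, 7241 ± 5755 and 38875 ± 3198 CPM in mMΦ at E14.5, P3 and P10, against 15804 ± 2359, 6624 ± 2318 and 11518 ± 1873 CPM in microglia (SD, n = 3 each). At P10, 19 of the 36 genes were higher and none lower in mMΦ. Their part in the 26 differences was not tested.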

How the data were processed

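RNA of cells sorted from the brains of individual mice was sequenced as single reads from unstranded full-length cDNA libraries, per the labels' protocols. The authors deposited whole-number counts of reads per gene symbol for 45 libraries, and all columns were used. Per the submitters' processing notes, bcl2fastq 2.18, STAR 2.7.8a and featureCounts 2.0.2 were used. Genome build, annotation and strand setting do not appear in these sources, so counts of genes overlapping on opposite strands are uncertain.

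Genes were filtered with filterByExpr (minimum count 10, minimum total 15), leaving 17064 of 53546, and scaled by TMM. A robust quasi-likelihood fit (edgeR 4.0.16, R 4.3.3, F test) held all 45 libraries, with a coefficient for each of 13 groups and 1 for project S276. The Benjamini-Hochberg adjusted p ran over all genes tested in each contrast. Libraries of a P3 group differed by 35.8 to 184 in chi-square per degree of freedom, so none was a repeat deposit.

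Named genes are, in each direction, the 15 called genes with the largest change at a mean of at least 20 CPM and the 12 with the highest level at an absolute log2 fold change of at least 1, both without overlap. To these were added up to 4 called members per direction and 3 uncalled members of each programme list, 8 genes in each direction of each interaction, and Cx3cr1. The text describes most of them, and some are not reported here. The genes, lists and tests were chosen with earlier results of these data known. Alternatives were other size factors, no filter, DESeq2 1.42.0, voomWithQualityWeights of limma 3.58.1, other batch and replicate terms, fewer groups and leaving out each library. The fit was tested on simulated data. Promoter windows are those of RefSeq for GRCm38.p6.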

Additional observations from a re-analysis of the deposited data

Results flagged for a closer look

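Results were singled out where the difference between mMΦ and microglia at P3 differed from that at another age by the interaction term of edgeR. Groups of 3 libraries are too small for a check of single outlying samples. Values are the log2 fold change at P3 minus that at the other age.

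Against E14.5, the value was 7.13 for Mmp9, 6.71 for Cd209f, 5.91 for Cd163, 4.50 for Clec12a, 4.37 for Cbr2, 2.85 for Pmepa1 and 1.14 for Ctsc, all more towards mMΦ at P3. It was -4.36 for Gadd45g, -2.82 for Ighm and -2.11 for Clec4a3. Their adjusted p ran from 0.00013 for Cd163 to 0.047 for Ighm.

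Against P10, the value was 2.28 for Selplg, 1.54 for Gpr183, 1.48 for Alox5ap, 1.44 for P2ry13, 1.43 for Cd164 and 1.19 for Slco2b1. It was -7.33 for Sik1, -5.79 for Gadd45g, -5.55 for Mt2, -5.32 for Clec4n, -5.25 for H2-Ab1, -4.67 for Colec12, -3.90 for Id2 and -3.72 for Pnisr. Their adjusted p ran from 0.00035 for Gadd45g to 0.046 for Pnisr, Sik1 and Gpr183. Of the 12 leave-outs of 1 library, Sik1 was called in 2 and Pnisr in 1. Pnisr was at 179.7 CPM in microglia P3 replicate 2, against 31.5 and 44.2 CPM in the other two microglia libraries of that age.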

How the results depend on the processing

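The 780 calls at P3 numbered 492 without the filter (491 shared), 1702 with DESeq2, 1875 with voom, 1395 in a fit of the compared groups alone (624 shared) and 393 with microglia replicate 2 alone on the microglia side. The 199 calls among list members numbered 120 with that library alone, where the lone library is assumed to vary like the other groups. The 12 differences between P3 and E14.5 numbered 277 with DESeq2, 95 with voom and 43 in the compared groups alone, and the 32 between P3 and P10 numbered 13 without the filter, 434, 158 and 64 in the same 3 fits, and 20 without the batch term. Leaving out 1 library gave 507 (without microglia replicate 2) to 657 calls at P3, 4 to 12 and 11 to 70 for the differences (4 and 70 without microglia P3 replicate 3, 11 without microglia P10 replicate 1), and 162 to 179 list members. The other values stayed within 1.5 times. The cause of these shifts was not tested. Of the calls, 53.2% were higher in mMΦ at P3 and 47.5 to 60.7% in the other settings. For P3 against E14.5 75% of calls leaned towards mMΦ, against 55.6% with DESeq2, 44.2% with voom and 51.2% in the compared groups alone. For P3 against P10 it was 18.8%, against 41.8% with voom, 4.17% without microglia P3 replicate 2, 7.32% without mMΦ P3 replicate 3, 11.1% and 11.8% without mMΦ P10 replicates 2 and 3, and 32.9% without microglia P3 replicate 3. The median log2 fold change of all genes was -0.03, and 0.11 without microglia replicate 2. With the replicate block, which also holds the batch since numbers 4 and 5 are those of project S276, 711 genes were called at P3. The groups share only numbers 2 and 3, whose libraries deviate together at r = 0.0136 and 0.0182, so a number is not shown to pair mice. Of 162 named called genes none changed sign and 76 were called in every setting. Of 87 uncalled ones 26 changed sign in some setting, none with a call. The differences of Gadd45g, Mt2 and Id2 against P10 were called in every setting, and no sign of the 24 changed. Whether the scatter between libraries or their depth of 17618151 to 22668720 counts limited what could be called was not tested.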
